A study of Mus musculus with 29 samples.

Results

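Smpd3, St3gal5, Fa2h and Ugt8a encode 4 enzymes that make or cut sphingolipids, the membrane lipids built on a sphingoid base. Their rows were taken by Ensembl identifier, with the version dropped and symbols from GENCODE M21, and all 4 genes had a row both in the amygdala table of 9872 genes and in the medial prefrontal cortex table of 6080 genes. The 4 genes were selected on measured values of these same libraries: Smpd3 and St3gal5 were chosen because they were higher, and Fa2h and Ugt8a because they were lower, in Sus-T than in Res-T libraries. This separation is therefore a description and no finding.

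Sphingomyelin and gangliosides are abundant in neuronal membranes. Smpd3 encodes neutral sphingomyelinase, which cuts sphingomyelin to ceramide, and St3gal5 encodes the sialyltransferase that makes the ganglioside from which the complex gangliosides of neurons are built. Myelin, the sheath that oligodendrocytes wrap around axons, is instead rich in galactosylceramide and its sulfated form, sulfatide. Ugt8a encodes the galactosyltransferase that makes galactosylceramide, and Fa2h encodes the hydroxylase that supplies the 2-hydroxy fatty acids many of these lipids carry.

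The libraries came from Thy1-YFP mice, B6.Cg-Tg(Thy1-YFP)HJrs/J, in which a Thy1 promoter drives the fluorescent protein. All groups carried the transgene. Cells labelled as pyramidal neurons were sorted from dissociated punches of each region, and RNA was sequenced after ultra-low-input library preparation with removal of ribosomal RNA. The groups were Sus-T with trauma (4 libraries in each region), Res-T with trauma (4 amygdala and 3 prefrontal libraries), Sus-T without trauma (2 in each region) and Res-T without trauma (3 amygdala and 4 prefrontal libraries). The labels do not spell out Sus-T and Res-T, the kind of trauma, age or sex. The question was how the 4 transcripts, and the rest of sphingolipid metabolism, differed between Sus-T and Res-T and between trauma and no trauma.

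Few markers of the labelled cell type had a row. Of 9 markers of pyramidal neurons, 3 had a row in the amygdala table (Camk2a, Camk2n1 and Nrgn), with a summed share of 0.00494 to 0.217% of a library's total, and 0 had one in the prefrontal table; Slc17a7, a glutamate transporter that defines these neurons, was among those with no row. Oligodendrocyte markers took 1.98 to 7.33% of amygdala and 2.53 to 8.79% of prefrontal library totals, although the sort was for neurons. The deposited signal, in arbitrary units, summed to 3267967 to 4021272 per amygdala library and 2095138 to 2444486 per prefrontal library, and the number of reads behind a value is unknown. Gene-centred log2(signal - 1) had 1 dimension fewer than the amygdala libraries allow and 2 fewer than the prefrontal libraries allow. The fits used log2(signal + 1) of the same signal, so p-values may be too low. In the amygdala the 3 Res-T libraries without trauma had weights of at most 0.0002 in the missing dimension, against 0.0074 to 0.273 in the other libraries. Prefrontal Res-T with trauma replicate 1 had 0.731 of a total of 2. Prefrontal Res-T without trauma replicate 4 was the lowest of its group for Smpd3 and St3gal5 and the highest for Fa2h and Ugt8a. It was not distant by Dixon's criterion for any of them. The fitted differences and correlations that rest on it are given without it as well, while group means and rankings of genes include it.

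The genes lie at chr8:106252548-106337988 (Smpd3, minus strand), chr6:72097592-72154571 (St3gal5, plus strand), chr8:111345135-111393824 (Fa2h, minus strand) and chr3:125865271-125938619 (Ugt8a, minus strand) of GRCm38, and all 4 are annotated as protein-coding. Each value stands for a whole gene. Smpd3 overlaps the protein-coding gene Prmt7, which has a row in the tables, on the opposite strand, and St3gal5 overlaps the antisense gene 4933431G14Rik. The strand setting of the quantification is not given in the sources used here, so reads from such pairs may not be told apart.

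RefSeq promoter windows on GRCm38.p6, 250 bases before to 50 after the start of transcription, were matched for 2 of the 4 genes, 1 from each pair. They are printed because the pairs were set against each other, so that the start regions of a neuronal and a myelin enzyme can be read side by side. Capitals mark the GC box, GGGCGG, on either strand. The St3gal5 window is chr6:72097358-72097657 (plus strand) and the Ugt8a window is chr3:125938603-125938902 (minus strand), both written 5′ to 3′ along the gene.
St3gal5: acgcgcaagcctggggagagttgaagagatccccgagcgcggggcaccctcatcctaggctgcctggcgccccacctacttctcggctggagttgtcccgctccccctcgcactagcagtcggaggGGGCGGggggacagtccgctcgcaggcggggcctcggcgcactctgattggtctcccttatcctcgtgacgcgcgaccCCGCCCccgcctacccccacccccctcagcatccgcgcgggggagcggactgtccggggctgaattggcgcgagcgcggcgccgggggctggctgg
Ugt8a: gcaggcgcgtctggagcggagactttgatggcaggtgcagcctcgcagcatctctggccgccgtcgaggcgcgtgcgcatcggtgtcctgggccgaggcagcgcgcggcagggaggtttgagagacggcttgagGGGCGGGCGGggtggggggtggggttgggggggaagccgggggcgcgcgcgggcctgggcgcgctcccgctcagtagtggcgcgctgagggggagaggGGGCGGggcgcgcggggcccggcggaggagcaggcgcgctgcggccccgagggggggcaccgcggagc

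The GC box occurred 2 times in the St3gal5 window and 3 times in the Ugt8a window, where 2 of the copies overlap. It was present in 35.7% of the 32851 RefSeq promoter windows of the same length. The letters CCAAT, on either strand, occurred 2 times in the St3gal5 window and 0 times in the Ugt8a window, and were present in 37.4% of all windows. ACAAAG, the core bound by SOX factors, occurred in neither window and in 18.7% of all. Both windows were rich in G and C, at 72.7% for St3gal5 and 78.3% for Ugt8a, against a median of 52.7%, and held 33 and 40 CG pairs. These matches describe letters in a window and say nothing of binding.

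Smpd3, the sphingomyelinase, was highest in Sus-T libraries of both regions. In the amygdala its signal was 295, 83.0, 206 and 88.8 in Sus-T with trauma, against 51.5, 139, 15.2 and 64.9 in Res-T with trauma. Without trauma it was 101 and 129 in Sus-T, against 47.8, 62.8 and 38.0 in Res-T. With trauma the groups overlapped through Res-T replicate 2, and without trauma the 2 Sus-T values exceeded the 3 Res-T values. With trauma the means were 168 ± 102 in Sus-T and 67.5 ± 51.8 in Res-T (SD, n = 4 each), and without trauma 115 ± 19.5 in Sus-T (n = 2) and 49.5 ± 12.5 in Res-T (n = 3). From high to low the order was Sus-T with trauma, Sus-T without, Res-T with and Res-T without trauma, and no neighbours in it were separated.

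Prefrontal Smpd3 was lowest in Res-T libraries with trauma. Its signal was 133, 84.9, 128 and 159 in Sus-T with trauma, against 14.8, 10.6 and 12.3 in Res-T with trauma. Without trauma it was 111 and 122 in Sus-T, against 78.3, 90.7, 73.6 and 26.7 in Res-T. The 3 Res-T libraries with trauma lay below every other library of the region, and the next lowest value was that of Res-T without trauma replicate 4. With trauma the means were 126 ± 30.6 in Sus-T (SD, n = 4) and 12.55 ± 2.09 in Res-T (n = 3), and without trauma 116 ± 7.83 in Sus-T (n = 2) and 67.3 ± 28.0 in Res-T (n = 4). From high to low the order was Sus-T with trauma, Sus-T without, Res-T without and Res-T with trauma. The 2 Sus-T groups overlapped, and the other neighbours did not.

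St3gal5, the ganglioside sialyltransferase, varied less than Smpd3 in the amygdala. Its signal was 111, 130.4, 147 and 103 in Sus-T with trauma, against 92.9, 113, 118 and 93.7 in Res-T with trauma. Without trauma it was 165 and 147 in Sus-T, against 51.1, 65.3 and 111 in Res-T. The groups with trauma overlapped and those without trauma did not. With trauma the means were 123 ± 19.7 in Sus-T and 104 ± 13.0 in Res-T, and without trauma 156 ± 12.7 in Sus-T and 75.9 ± 31.5 in Res-T. Here Sus-T without trauma came first, then Sus-T with, Res-T with and Res-T without trauma, and only the 2 Sus-T groups were separated as neighbours, the highest with trauma at 146.9 and the lowest without at 147.4.

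Prefrontal St3gal5 largely followed Smpd3 across libraries. It was 254, 128, 199 and 166 in Sus-T with trauma, against 26.5, 22.9 and 20.4 in Res-T with trauma. Those without trauma were 169 and 158 in Sus-T, against 143.5, 182, 106 and 47.4 in Res-T. Again the 3 Res-T libraries with trauma were the lowest of the region and Res-T without trauma replicate 4 came next. Means with trauma were 187 ± 53.6 in Sus-T and 23.3 ± 3.04 in Res-T, and without trauma 163 ± 7.67 in Sus-T and 119.8 ± 57.5 in Res-T. The order was that of Smpd3, and the 2 Res-T groups were its only separated neighbours.

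Fa2h, the hydroxylase of myelin lipids, ran the other way. In the amygdala its signal was 1078, 1316, 1101 and 1054 in Sus-T with trauma, against 1930.1, 2449.6, 1697 and 1315 in Res-T with trauma. Without trauma it was 473 and 763 in Sus-T, against 2312, 2504 and 2191 in Res-T. The groups with trauma touched at a single pair of libraries (1315.5 and 1314.9), and those without trauma were far apart. With trauma the means were 1137 ± 120.4 in Sus-T and 1848 ± 475 in Res-T, and without trauma 618 ± 205 in Sus-T and 2336 ± 158 in Res-T. From low to high the order was Sus-T without trauma, Sus-T with, Res-T with and Res-T without trauma, and the 2 Sus-T groups were its only separated neighbours.

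Prefrontal Fa2h was 382.5, 397, 653 and 677 in Sus-T with trauma, against 1851, 1691 and 1129.6 in Res-T with trauma, with no overlap. The values without trauma were 139.8 and 624 in Sus-T, against 1122, 654, 617 and 2384 in Res-T. The pair of Sus-T libraries without trauma differed more than 4-fold from each other, and Res-T replicate 4 was the highest library of the region. Group means with trauma were 527 ± 159 in Sus-T and 1557 ± 379 in Res-T, and without trauma 382 ± 343 in Sus-T and 1194 ± 826 in Res-T. From low to high the order was Sus-T without trauma, Sus-T with, Res-T without and Res-T with trauma, and every pair of neighbours in it overlapped.

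Ugt8a, the galactosyltransferase, moved with Fa2h. In the amygdala its signal was 4730.0, 3809, 2884 and 4227 in Sus-T with trauma, against 6005, 4495, 3847 and 4492 in Res-T with trauma. Without trauma it was 1503 and 2827 in Sus-T, against 5416, 7729 and 6615 in Res-T. The groups with trauma overlapped widely, and those without trauma did not. With trauma the means were 3912 ± 782 in Sus-T and 4709.8 ± 916 in Res-T, and without trauma 2165 ± 936 in Sus-T and 6587 ± 1157 in Res-T. The order was that of Fa2h, again with the 2 Sus-T groups as the only separated neighbours.

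Prefrontal Ugt8a was 1709, 2189, 1608 and 3469.5 in Sus-T with trauma, against 4605, 5064 and 3976 in Res-T with trauma, with no overlap. Those without trauma were 2679.7 and 1685 in Sus-T, against 2883, 2158, 2419 and 5469.9 in Res-T. Res-T without trauma replicate 4 again sat with the Res-T libraries with trauma. Means with trauma were 2244 ± 855 in Sus-T and 4548 ± 546 in Res-T, and without trauma 2182.5 ± 703 in Sus-T and 3232 ± 1522 in Res-T. The order was that of prefrontal Fa2h, with overlap between all neighbours.

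**Figure D1:**
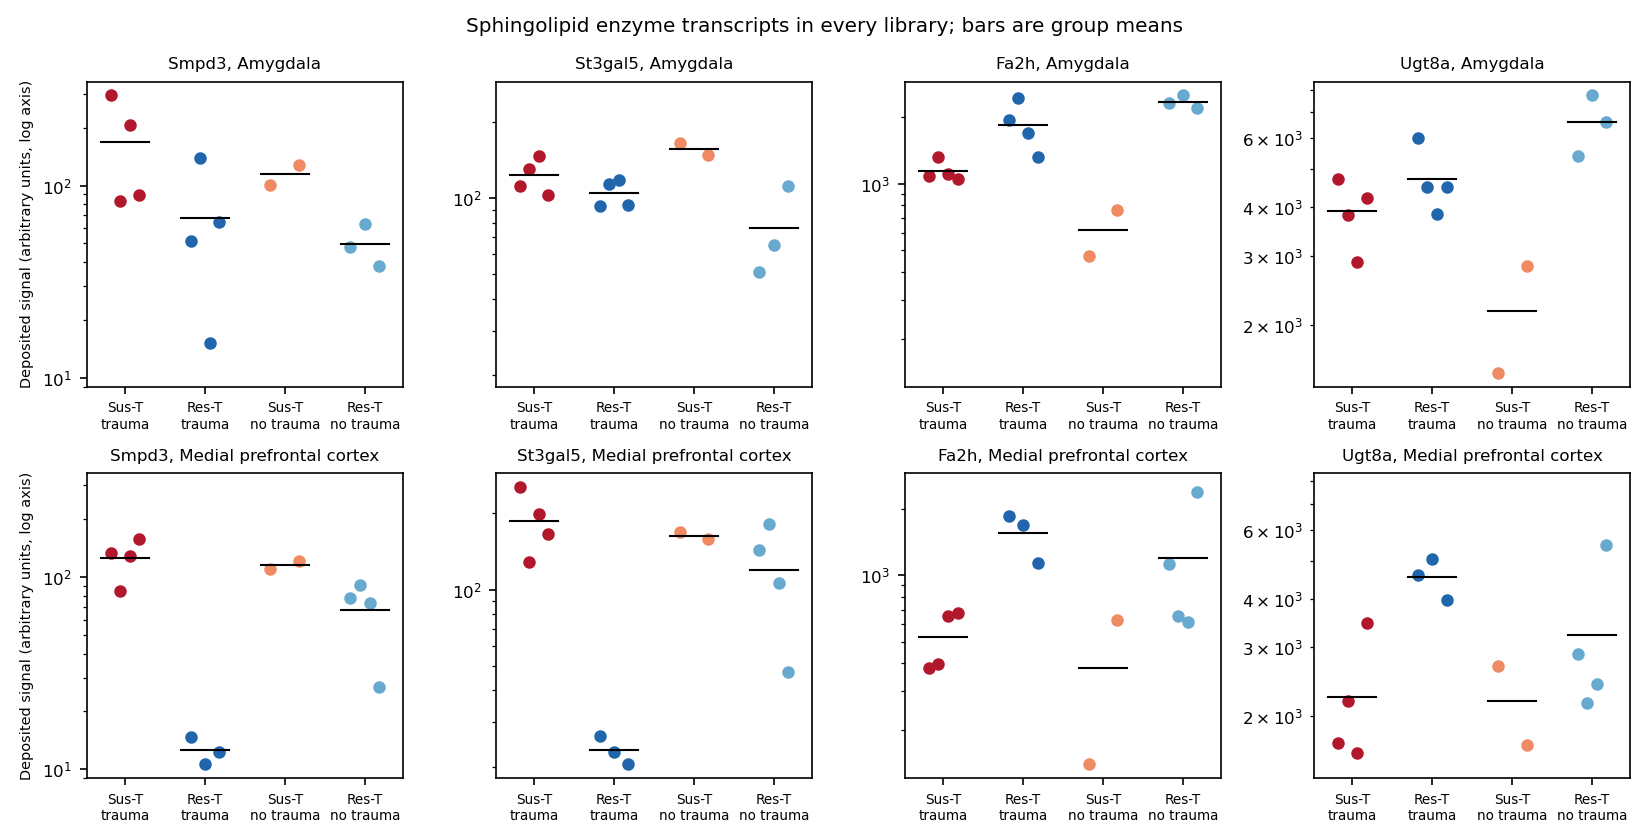
Deposited signal (arbitrary units, log axis) of Smpd3, St3gal5, Fa2h and Ugt8a in every library, amygdala above and medial prefrontal cortex below; points are libraries and bars are group means. The 3 prefrontal Res-T libraries with trauma lie between 10.6 and 14.8 for Smpd3, below all others, and the 2 amygdala Sus-T libraries without trauma lie at 473 and 763 for Fa2h, below all others.

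Differences between groups were fitted with limma on log2(signal + 1), so a difference of 1 is about 2-fold, and a gene passed at a Benjamini-Hochberg adjusted p below 0.05 over all genes of the region. Because the genes were chosen with the separation in the amygdala without trauma and in the prefrontal cortex with trauma in view, no p is given for them there, nor in contrasts that share those libraries. The p-values and intervals given for them in the remaining contrasts do not allow for the choice of genes by direction. The intervals are also not adjusted for the number of genes. In these bulk samples, fewer cells of a type and less RNA per cell cannot be told apart.

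In the amygdala without trauma, Sus-T minus Res-T was 1.22 ± 0.68 (log2, SE) for Smpd3, 1.11 ± 0.32 for St3gal5, -1.96 ± 0.24 for Fa2h and -1.66 ± 0.27 for Ugt8a. Fa2h was thus 3.88 times and Ugt8a 3.16 times lower in Sus-T, and no groups overlapped. The contrast was a broad one, with 12.4% of all genes called higher and 15.0% called lower, and with groups that did not overlap for 27.7% of genes on the higher and 31.3% on the lower side. Without Sus-T replicate 1 the differences of Fa2h and Ugt8a were -1.61 and -1.20, and without Sus-T replicate 3 they were -2.30 and -2.12.

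In the amygdala with trauma, none of the 4 genes passed and all 4 had overlapping groups. Smpd3 differed by 1.47 ± 0.53 (adjusted p = 0.280, 95% interval 0.36 to 2.58) and St3gal5 by 0.23 ± 0.25 (adjusted p = 0.782, interval -0.30 to 0.75). Fa2h differed by -0.67 ± 0.19 (adjusted p = 0.172, interval -1.07 to -0.27) and Ugt8a by -0.27 ± 0.21 (adjusted p = 0.656, interval -0.71 to 0.17). The signs were those of the groups without trauma, but the genes were chosen by this direction, so the match is no replication. Here limma called 0 of 9872 genes (0% in either direction), with 1142 genes at an unadjusted p under 0.05. Groups did not overlap for 3.46% of all genes on the higher and 2.29% on the lower side.

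In the prefrontal cortex with trauma, Sus-T minus Res-T was 3.21 ± 0.44 for Smpd3 and 2.92 ± 0.41 for St3gal5, or 9.24-fold and 7.55-fold. Among all genes these differences lay at percentiles 99.9 and 99.7, and those of Fa2h and Ugt8a at 1.69 and 6.18. Such ranks follow in part from the choice of genes. Fa2h differed by -1.58 ± 0.46 and Ugt8a by -1.08 ± 0.31, which is 2.99 and 2.12 times lower in Sus-T. No groups overlapped, beside 24.4% of all genes on the higher and 16.3% on the lower side, and 14.0% of genes were called higher and 8.93% lower. With 10 as the pseudocount the Smpd3 difference was 2.57.

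In the prefrontal cortex without trauma, none of the 4 genes passed, and limma called 0 of 6080 genes (0% in either direction) with 630 at an unadjusted p under 0.05. Smpd3 differed by 0.91 ± 0.50 (adjusted p = 0.544, interval -0.15 to 1.97), and it alone had groups that did not overlap, beside 8.16% of all genes on the higher and 6.74% on the lower side. St3gal5 differed by 0.60 ± 0.46 (adjusted p = 0.680, interval -0.37 to 1.58) and Ugt8a by -0.50 ± 0.35 (adjusted p = 0.640, interval -1.24 to 0.23). Fa2h differed by -1.78 ± 0.52 (adjusted p = 0.305, interval -2.89 to -0.68). Without Sus-T replicate 3, which leaves a lone Sus-T library at 139.8, the Fa2h difference was -2.86. Without Sus-T replicate 1, which leaves a lone Sus-T library at 624, it was -0.71. A lone library is assumed to vary like the other groups, so no p is given for these fits. Without Res-T replicate 4 the differences were 0.52 for Smpd3, 0.22 for St3gal5, -1.37 for Fa2h and -0.22 for Ugt8a, with adjusted p from 0.531 to 0.932.

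The trauma comparisons share libraries with those above and are given as differences only. In amygdala Sus-T, trauma minus no trauma was 0.91 ± 0.23 for Fa2h and 0.90 ± 0.26 for Ugt8a, without overlap, beside 12.6% of all genes on the higher side. St3gal5 was -0.36 ± 0.31 without overlap, beside 7.77% of genes on the lower side, and Smpd3 was 0.35 ± 0.64 with overlap. Of all genes 0.0203% were called higher and 0.0101% lower. In amygdala Res-T the differences were 0.09 ± 0.57 for Smpd3, 0.52 ± 0.27 for St3gal5, -0.37 ± 0.20 for Fa2h and -0.49 ± 0.23 for Ugt8a, all with overlap, while 3.30% of genes were called higher and 2.88% lower.

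In prefrontal Res-T, trauma minus no trauma was -2.21 ± 0.44 for Smpd3 and -2.16 ± 0.41 for St3gal5, or 4.63 and 4.48 times lower with trauma. Neither had overlapping groups, beside 7.88% of genes on the lower side and 5.20% on the higher side. Fa2h and Ugt8a were at 0.58 ± 0.46 and 0.59 ± 0.31, with overlap. Without Res-T without trauma replicate 4 the 4 differences were -2.60, -2.55, 0.99 and 0.87. In prefrontal Sus-T the differences were 0.09 ± 0.50 for Smpd3, 0.15 ± 0.46 for St3gal5, 0.78 ± 0.52 for Fa2h and 0.01 ± 0.35 for Ugt8a. The Fa2h value was -0.30 without replicate 1 and 1.86 without replicate 3 of Sus-T without trauma, and that of Ugt8a changed sign under 5 of 12 alternatives (-0.33 to 0.34). Both prefrontal trauma comparisons called 0% of genes in either direction by limma, with 899 genes in Res-T and 91 in Sus-T at an unadjusted p under 0.05.

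The trauma difference in Sus-T minus that in Res-T was, in the amygdala, 0.26 ± 0.86 for Smpd3, -0.88 ± 0.41 for St3gal5, 1.29 ± 0.31 for Fa2h and 1.39 ± 0.34 for Ugt8a, where 4.76% of all genes were called higher and 1.98% lower. For the prefrontal libraries it was 2.30 ± 0.67 for Smpd3, 2.32 ± 0.62 for St3gal5, 0.20 ± 0.70 for Fa2h and -0.58 ± 0.46 for Ugt8a, and 0% of genes were called in either direction, with 371 at an unadjusted p under 0.05. Without Res-T without trauma replicate 4 the prefrontal values were 2.69, 2.70, -0.21 and -0.87. Leaving out Sus-T without trauma replicate 1 gave -0.87 for prefrontal Fa2h, and leaving out replicate 3 gave 1.28. The amygdala value of Smpd3 was -0.31 without Res-T with trauma replicate 3. The larger of these values belonged to the myelin pair in the amygdala and to the neuronal pair in the prefrontal cortex.

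The neuronal pair was set against the myelin pair within each library, as the mean log2(signal + 1) of Smpd3 and St3gal5 minus that of Fa2h and Ugt8a. Its sign depends on how long and abundant the transcripts are, so only its differences between libraries can be read. In the amygdala it was -3.63, -4.41, -3.35 and -4.45 in Sus-T with trauma, against -5.60, -4.72, -5.87 and -4.94 in Res-T with trauma. Without trauma it was -2.70 and -3.41 in Sus-T, against -6.13, -6.08 and -5.85 in Res-T. Every Sus-T library lay above every Res-T library, a direction that the choice of genes fixes.

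For prefrontal libraries the pair difference was -2.13, -3.15, -2.67 and -3.23 in Sus-T with trauma, against -7.13, -7.46 and -6.97 in Res-T with trauma. The values without trauma were -2.16 and -2.88 in Sus-T, against -4.07, -3.20, -3.78 and -6.62 in Res-T. Res-T without trauma thus spanned almost the whole distance between the other groups: replicate 4 lay next to Res-T with trauma, and replicate 2 lay inside the range of Sus-T with trauma. Group means with trauma were -2.80 ± 0.51 in Sus-T and -7.19 ± 0.25 in Res-T, and without trauma -2.52 ± 0.51 in Sus-T and -4.42 ± 1.52 in Res-T (SD).

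**Figure D2:**
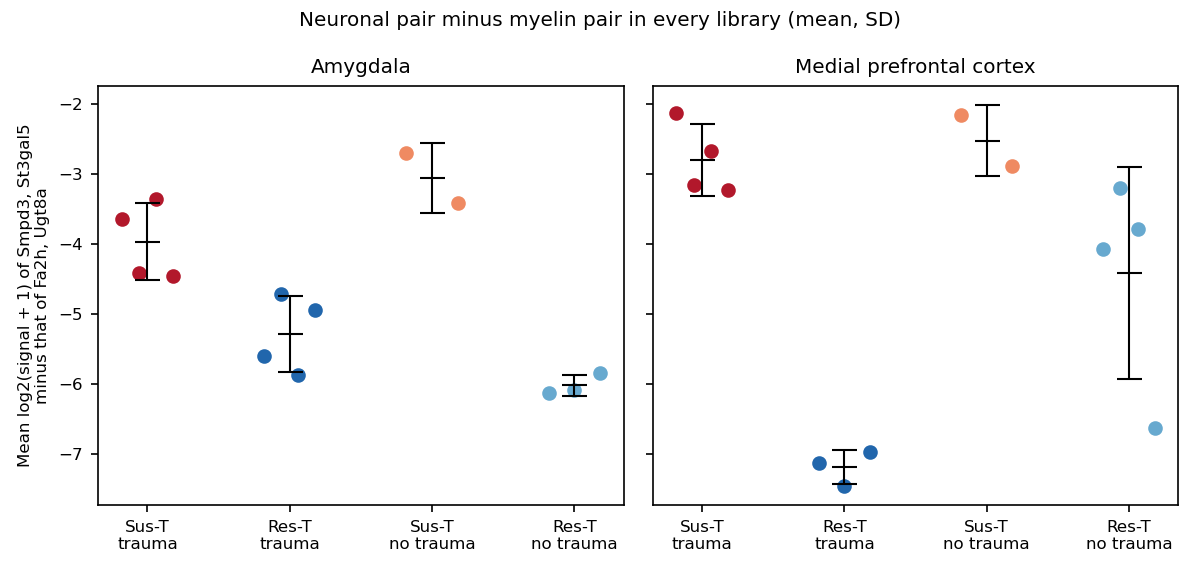
Mean log2(signal + 1) of Smpd3 and St3gal5 minus that of Fa2h and Ugt8a in every library (points), with group mean and SD, in the amygdala and the medial prefrontal cortex. Res-T libraries with trauma in the prefrontal cortex lie from -7.46 to -6.97, and 1 of the 4 Res-T libraries without trauma lies near them at -6.62.

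Across all libraries the myelin pair moved with oligodendrocyte markers, and the neuronal pair with the pyramidal and synaptic transcripts measured. In the prefrontal cortex these were only 4 genes of a list added after the values were seen. Pearson's r with astrocyte markers was 0.484 for Smpd3 and 0.621 for St3gal5 in the amygdala, and 0.324 and 0.341 in the prefrontal cortex. Within groups it was 0.006 and 0.081 in the amygdala, and 0.589 for both in the prefrontal cortex. With group means removed, Pearson's r was only 0.289 for prefrontal Fa2h with oligodendrocyte markers. It was 0.176 for amygdala St3gal5 with pyramidal markers. Oligodendrocyte markers (17 of 18 with a row in the amygdala and 10 of 18 in the prefrontal cortex, Fa2h and Ugt8a not among them) made up 4.62% of the amygdala library total in Sus-T with trauma (4.08 to 5.37), against 5.57% in Res-T with trauma (4.72 to 6.49). Without trauma they made up 2.45% in Sus-T (1.98 to 2.93), against 6.68% in Res-T (6.25 to 7.33). Prefrontal shares were 3.22% in Sus-T with trauma (2.68 to 4.52), against 6.52% in Res-T with trauma (5.39 to 7.45), and in the absence of trauma 3.17% in Sus-T (2.53 to 3.81), against 4.92% in Res-T (3.27 to 3.90 in 3 libraries and 8.79 in replicate 4). The 4 groups ranked by this share as they did by mean Ugt8a in both regions.

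With the mean log2 of these markers as a covariate, the amygdala differences without trauma were -0.25 ± 0.48 for Fa2h and -0.36 ± 0.65 for Ugt8a, beside 4.06 ± 1.70 for Smpd3 and 0.80 ± 0.87 for St3gal5. In the prefrontal cortex with trauma they were then -1.07 ± 0.67 for Fa2h, -0.04 ± 0.21 for Ugt8a, 2.53 ± 0.58 for Smpd3 and 2.19 ± 0.52 for St3gal5. The 3 measured pyramidal markers made up 0.112% of the amygdala total in Sus-T with trauma, against 0.0324% in Res-T with trauma, and 0.117% in Sus-T without trauma, against 0.00654% in Res-T without trauma. Astrocyte markers (8 of 9 with a row) also differed, at 1.42% in amygdala Sus-T without trauma, against 0.358% in Res-T without trauma. Microglial markers (3 of 7 with a row, Cx3cr1, C1qa and Tmem119) were at 0.0247% in Sus-T without trauma, against 0.00735% in Res-T without trauma, and each was higher by limma (adjusted p from 0.0122 to 0.0444). The single pan-neuronal marker with a row was at 0.164% in Sus-T, against 0.0251% in Res-T without trauma. Erbb4, the single interneuron marker with a row, went the other way. It was at 0.0235% in amygdala Sus-T without trauma (0.0225 to 0.0245), against 0.0341% in Res-T without trauma (0.032 to 0.0372). Endothelial and mural markers were at 0.0118% in Sus-T and 0.011% in Res-T without trauma, and oligodendrocyte precursor markers at 0.129% in Sus-T and 0.169% in Res-T. A list of 30 synaptic and neuronal genes was added after the values were seen, because the prefrontal table held no pyramidal or pan-neuronal marker. Of the neuronal lists that table held only the interneuron marker Erbb4. Of the 30 genes, 4 had a prefrontal row. They made up 0.23% in Sus-T with trauma (0.175 to 0.28), against 0.154% in Res-T with trauma (0.123 to 0.198), and the groups overlapped. The oligodendrocyte covariate was itself separated between the groups compared. Its mean log2 was 10.2 and 10.95 in amygdala Sus-T without trauma, against 12.33 to 12.65 in Res-T without trauma. In the prefrontal cortex with trauma it was 11.25 to 12.11 in Sus-T, against 12.44 to 12.87 in Res-T. The covariate fit therefore cannot tell marker share from Sus-T or Res-T. What part the cell type shares have in the differences of the 4 genes was not tested.

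Across the 13 libraries of a region, which share their groups and the authors' normalization, Pearson's r of log2 values describes how alike transcripts were. Ugt8a had r = 0.911 with the mean of the amygdala oligodendrocyte markers and 0.975 with the prefrontal ones, and within groups, with group means removed, 0.557 and 0.949. For Fa2h these values were 0.954 and 0.645 overall and 0.867 and 0.289 within groups. Smpd3 and St3gal5 had r = 0.982 with each other in the prefrontal cortex, 0.883 within groups, but only 0.349 in the amygdala, -0.139 within groups. Without prefrontal Res-T without trauma replicate 4, Ugt8a had 0.969 with the oligodendrocyte markers (0.904 within groups), Fa2h 0.535 (-0.290), and Smpd3 0.981 with St3gal5 (0.607). Fa2h and Ugt8a had r = 0.877 over amygdala and 0.679 over prefrontal libraries, or 0.591 without that library. Smpd3 had r = 0.795 with the 3 amygdala pyramidal markers, 0.840 within groups, and St3gal5 had 0.740, 0.176 within groups.

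**Figure D3:**
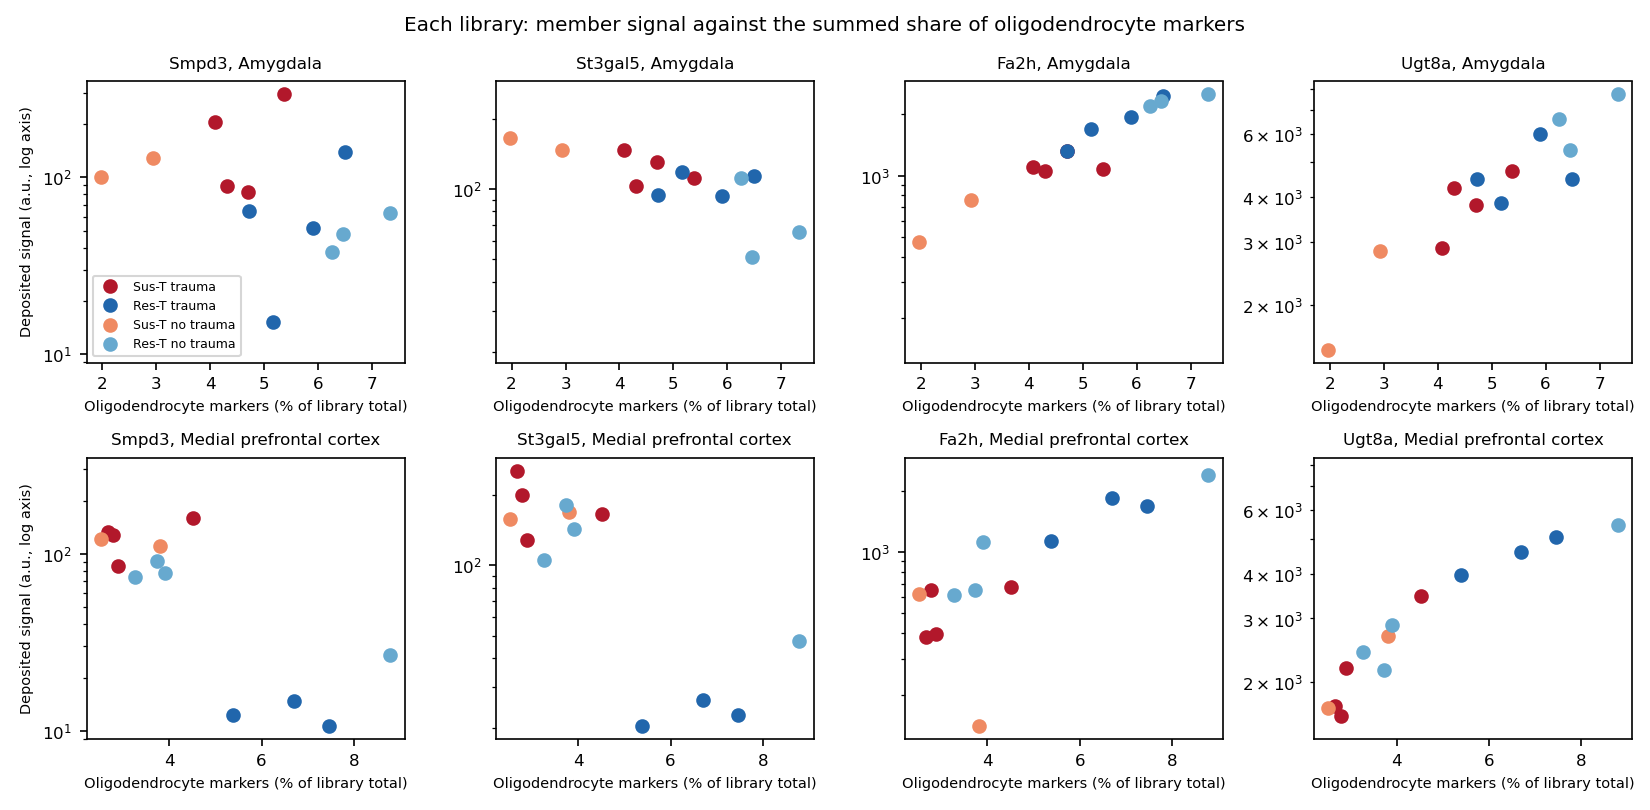
Deposited signal of each of the 4 genes (log axis, arbitrary units) against the summed share of oligodendrocyte markers in percent of the library total, 1 point per library, coloured by group, amygdala above and medial prefrontal cortex below. Libraries with a high share lie high for Ugt8a in both regions, and the prefrontal libraries with low Smpd3 and St3gal5 are the 4 with the highest shares.

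Ranked by Pearson's r over the same 13 libraries, the 5 genes most like Ugt8a included Tspan2 (0.978), Ermn (0.971), Smco3 (0.968) and Mtmr10 (0.967) in the amygdala, and Enpp2 (0.986), Edil3 (0.984), Slc44a1 (0.977) and Tspan2 (0.971) in the prefrontal cortex. Tspan2, a tetraspanin of oligodendrocytes, was in both sets. Fa2h was most like Adamtsl4 (0.971), Pllp (0.970), a myelin proteolipid, Snx33 (0.970), Cdc42ep1 (0.965) and Ttyh2 (0.965) in the amygdala. Its prefrontal counterparts were Hhip (0.956), Zfp169 (0.934), Pstpip2 (0.933), Rbbp6 (0.928) and Rassf1 (0.926).

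Smpd3 and St3gal5 shared 4 of their 5 most alike genes in the prefrontal cortex. For Smpd3 these were Bmpr1a (0.987), a receptor for bone morphogenetic proteins, Pkm (0.986), a pyruvate kinase, Fam19a5 (0.974), Eloc (0.974) and Ap2a2 (0.972). For St3gal5 they were Tlnrd1 (0.980), Pkm (0.980), Fam19a5 (0.978), Eloc (0.977) and Bmpr1a (0.976). In the amygdala they shared none: Smpd3 was most like Mxra7 (0.914), Ptgr2 (0.899), Emp2 (0.898), Tfcp2l1 (0.898) and Vopp1 (0.890), and St3gal5 was most like Aldh18a1 (0.921), Irf2bpl (0.909), Anxa7 (0.904), Efr3a (0.890) and the neuronal RNA-binding gene Elavl4 (0.888).

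The rest of sphingolipid metabolism was read from 7 lists with 93 genes, of which 64 had an amygdala row and 43 a prefrontal row. In the amygdala without trauma, 8 of the 64 were higher (12.5%) and 17 lower (26.6%) in Sus-T by limma, beside 12.4% and 15.0% of all genes, and the median difference was -0.23, against -0.03 for all genes. Of the 8 that rose, 5 were ganglioside genes, and the 17 that fell included 5 of sulfatide synthesis and fatty acid elongation. With the oligodendrocyte covariate 3 genes passed, all of them among these 25. Leaving out either Sus-T library leaves a lone one, so no count is given for those fits.

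Of 9 measured genes of ganglioside synthesis, 5 rose (55.6%) and 1 fell (11.1%), beside 12.4% and 15.0% of all genes. The list's median was 1.45, and no list was tested as a set. St3gal2, a sialyltransferase of the late ganglioside steps, was 222 and 349 in Sus-T without trauma, against 55.6, 86.6 and 72.2 in Res-T without trauma, and rose by 1.97 ± 0.28 (adjusted p = 0.000104). B4galt6, a lactosylceramide synthase just upstream of St3gal5, was 356 and 361 in Sus-T, against 106, 136 and 154 in Res-T, and rose by 1.45 ± 0.32 (adjusted p = 0.00316). St6galnac6 rose by 1.89 ± 0.33 (adjusted p = 0.000493), while its relative St6galnac3 fell by 1.90 ± 0.28 on the log2 scale (adjusted p = 0.000133). All 4 are glycosyltransferases, and the members of the list did not move one way.

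Of 11 measured genes of sulfatide synthesis and fatty acid elongation, 0 rose and 5 fell (45.5%), beside 12.4% and 15.0% of all genes. Their median was -0.70. Elovl7, an elongase of long-chain fatty acids, was 175 and 273 in Sus-T without trauma, against 949.9, 957 and 1130.1 in Res-T without trauma, and its difference was -2.20 ± 0.29 (adjusted p = 5.15e-05). Gal3st1, which sulfates the galactosylceramide made by Ugt8a, was 117 and 141 in Sus-T, against 435, 347 and 263 in Res-T, with a difference of -1.40 ± 0.31 (adjusted p = 0.00304). The elongases Elovl6 and Elovl1 differed by -1.37 and -1.24. No Sus-T library reached a Res-T library for Elovl7 or Gal3st1, as for 31.3% of all genes on the lower side.

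Of 12 measured genes of ceramide synthesis, 1 rose (8.33%) and 3 fell (25.0%), beside 12.4% and 15.0% of all genes. Cers6, a ceramide synthase, was 84.1 and 158 in Sus-T without trauma, against 17.9, 19.9 and 9.88 in Res-T without trauma, and rose by 2.84 ± 0.53 (adjusted p = 0.000781). Cers2, the synthase of very-long-chain ceramides that is abundant in oligodendrocytes, was 697 and 811 in Sus-T, against 1885, 2369 and 1743.5 in Res-T, with a difference of -1.40 ± 0.24 (adjusted p = 0.000399). Ceramide synthases thus passed on both sides. Sptlc2, a subunit of serine palmitoyltransferase, and Degs1, the dihydroceramide desaturase, fell, with differences of -1.23 and -0.84.

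Of 10 measured ceramidase and sphingosine phosphate genes, 0 rose and 4 fell (40.0%), beside 12.4% and 15.0% of all genes. The 4 were Asah2, the neutral ceramidase (-2.02), S1pr5, a receptor typical of oligodendrocytes (-1.90), Acer2, a Golgi ceramidase (-1.43), and Spns2, a transporter (-1.19). Of 12 breakdown genes, Npc1 (-1.27), Gltp (-1.01) and Scarb2 (-0.79) fell and Gm2a, the activator protein for ganglioside degradation, rose (0.90). That is 25.0% lower and 8.33% higher, beside the same shares of all genes. The ceramide carrier Col4a3bp, 1 of 6 genes of sphingomyelin synthesis and transport, fell (-0.79). Smpdl3a, of the acid sphingomyelinase family and 1 of 4 measured genes on the list of other sphingomyelinases, rose (1.34, adjusted p = 0.0438).

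In the prefrontal cortex with trauma, 2 of the 43 measured genes rose in Sus-T (4.65%) and 4 fell (9.30%), beside 14.0% and 8.93% of all genes, with a median of -0.06 against 0.15 for all genes. B4galt6 was 264, 286, 413 and 316.5 in Sus-T with trauma, against 124, 139 and 113 in Res-T with trauma, and rose by 1.33 ± 0.28 (adjusted p = 0.00466). Cers1, the main ceramide synthase of neurons, was 96.0, 96.5, 89.7 and 95.1 in Sus-T, against 25.5, 26.9 and 41.6 in Res-T, and rose by 1.59 ± 0.55 (adjusted p = 0.0435). For both genes the groups stood apart, as for 24.4% of all genes on the higher side, and Cers1 was nearly constant within Sus-T.

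Elovl7 was 195, 199, 181 and 292 in prefrontal Sus-T with trauma, against 610.0, 573 and 649 in Res-T with trauma, with a difference of -1.52 ± 0.31 (adjusted p = 0.0041). S1pr5 differed by -1.25 ± 0.32 (adjusted p = 0.0117), Sptlc2 by -0.97 ± 0.32 (adjusted p = 0.0374) and Npc1 by -0.67 ± 0.22 (adjusted p = 0.0349). These 4 genes also fell in the amygdala without trauma. Of the 39 list genes measured in both regions, 16 passed in the amygdala without trauma and 6 in the prefrontal cortex with trauma, and 5 passed in both with the same sign, which is 31.2% of the amygdala and 83.3% of the prefrontal calls. Over the 5274 genes measured in both regions, 695 passed in both with the same sign, which is 51.0% of 1362 amygdala and 55.1% of 1262 prefrontal calls. The prefrontal count was 3 without any one of Sus-T replicates 1 or 3 or of the 3 Res-T libraries, and 0 with the oligodendrocyte covariate.

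**Figure D4:**
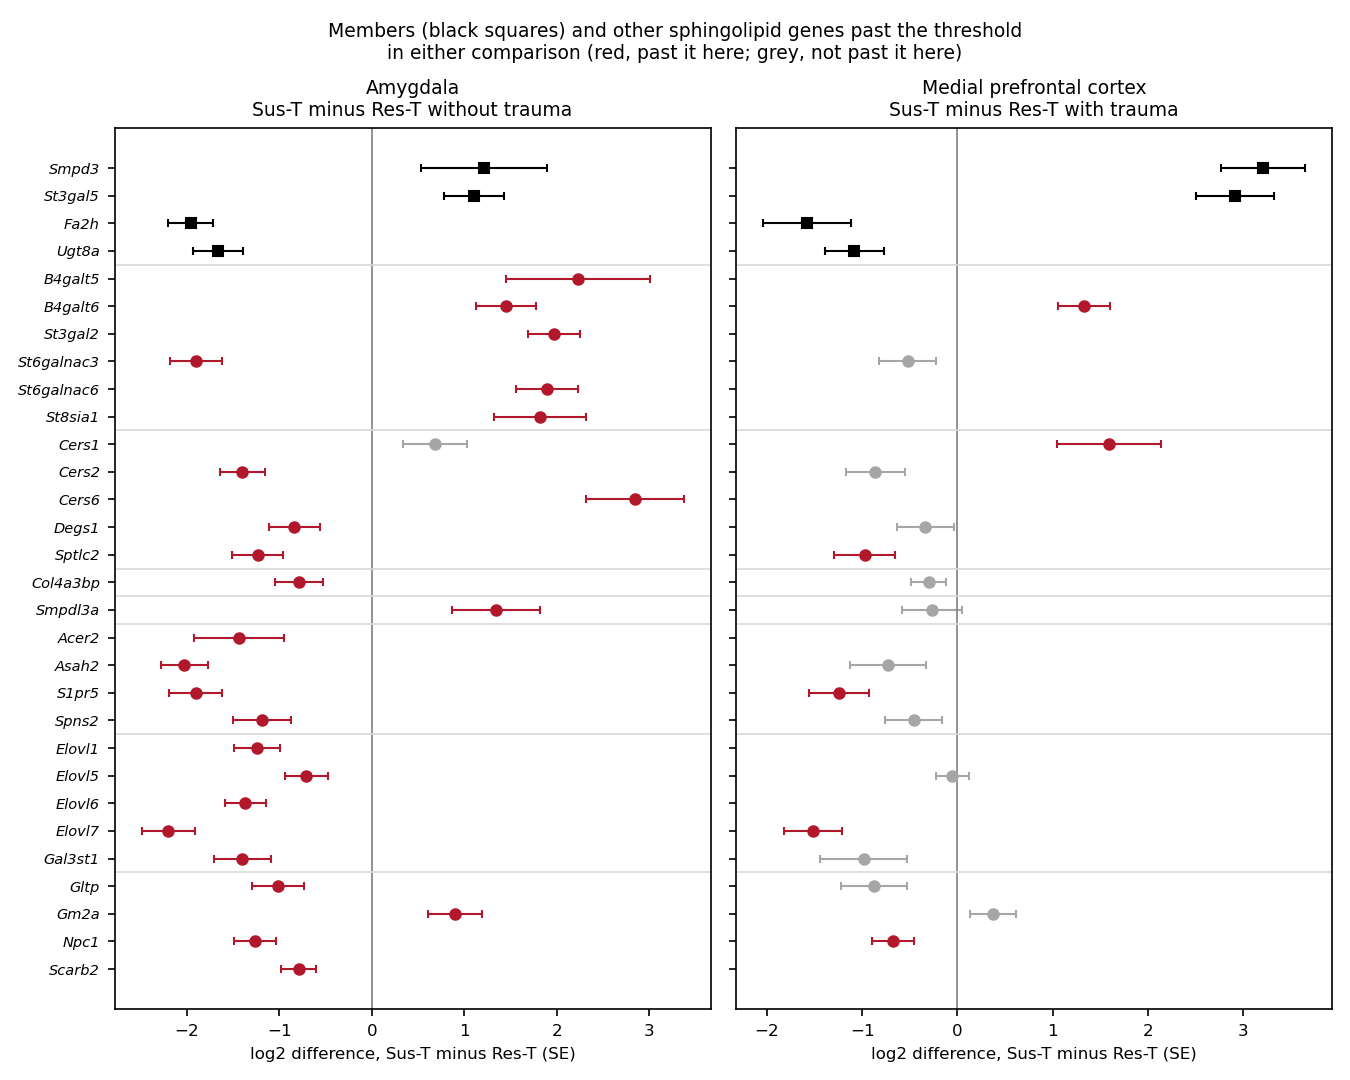
Log2 differences (SE) of Sus-T minus Res-T in the amygdala without trauma (left) and the medial prefrontal cortex with trauma (right) for the 4 chosen genes (black squares) and for every other listed sphingolipid gene that passed in either comparison (red where it passed, grey where it did not, no point where it was not measured). B4galt6 lies to the right of 0 and Elovl7, S1pr5, Sptlc2 and Npc1 to the left of 0 in both panels.

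Elsewhere few sphingolipid genes passed. In amygdala Res-T, trauma minus no trauma passed for 2 of 64 genes upward (3.12%) and 2 downward (3.12%), close to the 3.30% and 2.88% of all genes. Cers6 was 51.2, 136, 45.2 and 56.0 with trauma, against 17.9, 19.9 and 9.88 without trauma, and rose by 2.02 ± 0.44 (adjusted p = 0.0151), and St6galnac6 rose by 1.17 ± 0.28 (adjusted p = 0.0211). Elovl6 was 662, 412, 622 and 705 with trauma, against 1071.5, 1244 and 1304 without trauma, a difference of -1.03 ± 0.19 (adjusted p = 0.00877). Neu3, a sialidase that acts on gangliosides at the plasma membrane, was 4.86, 7.48, 10.9 and 22.6 with trauma, against 46.6, 39.4 and 32.6 without trauma, a difference of -1.88 ± 0.53 (adjusted p = 0.0431). None of these 4 genes had overlapping groups, beside 9.68% of all genes on the higher and 13.5% on the lower side, and the count ran from 1 to 7 when single libraries were left out.

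In amygdala Sus-T, 0 of 64 genes passed by limma for trauma, with 16 at an unadjusted p under 0.05, beside 1168 of all 9872 genes. Leaving out either Sus-T library without trauma leaves a lone one, so no count is given for those fits. The closest were Elovl7 (1.39 ± 0.27, adjusted p = 0.0517) and Asah2 (1.13 ± 0.24, adjusted p = 0.0587), neither of which passed. The trauma effects of Sus-T and Res-T differed for 10 of 64 genes, 7 upward (10.9%) and 3 downward (4.69%), beside 4.76% and 1.98% of all genes; these tests share the amygdala libraries without trauma. The 10 genes were Elovl7, Elovl6, Asah2, Npc1, Neu3, S1pr5 and St6galnac3 upward and Cers6, B4galt6 and St3gal2 downward. With the oligodendrocyte covariate 0 passed.

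In the amygdala with trauma, 0 of 64 sphingolipid genes passed in Sus-T against Res-T, with 15 at an unadjusted p under 0.05. Elovl1 (-0.71 ± 0.19, adjusted p = 0.155) and St8sia3, a ganglioside sialyltransferase (0.93 ± 0.30, adjusted p = 0.235), had the smallest p and did not pass. Prefrontal Sus-T against Res-T without trauma gave 0 of 43 genes that passed and 0 with an unadjusted p under 0.05, with Sptlc2 (-0.73 ± 0.36) and Cers4 (-0.86 ± 0.46) closest. For prefrontal trauma 0 of 43 passed in either Sus-T or Res-T, with 0 and 3 at an unadjusted p under 0.05. The closest were B4galt6 (0.39 ± 0.31) and Aldh3a2 (0.43 ± 0.35) in Sus-T, and Elovl7 (0.79 ± 0.31) and Cers1 (-1.30 ± 0.55) in Res-T. Without Res-T without trauma replicate 4, the Res-T comparison called 5. The difference of the prefrontal trauma effects passed for 0 of 43, with 1 at an unadjusted p under 0.05, and was closest for B4galt6 (0.92 ± 0.42) and Elovl7 (-0.94 ± 0.46).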

How the data were processed

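The series deposited expression values for 13 amygdala and 13 prefrontal libraries of 14 and 15 described; the other 3 were not analysed here. Per the submitters' processing notes, bcl2fastq 2.20, Salmon 1.2 and GRCm38.p6 were used. The authors deposited a signal in arbitrary units, with no zeros, whose normalization is not given in the sources used here. Columns repeated between tables were identical. Identifiers were matched to GENCODE M21.

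Values were analysed as log2(signal + 1), keeping genes with a mean of at least 1, which removed 0. In each region limma 3.58.1 (R 4.3.3, trend and robust) fitted 4 groups (9 residual degrees of freedom, median prior 8.32 and 8.40), with 5 contrasts and Benjamini-Hochberg adjustment over all genes, threshold 0.05. The fit was tested on simulated data with 200 changed genes and independent noise in each library, so that test does not cover the missing dimensions. Where nothing says that libraries came from separate animals, p-values measure only the spread between these libraries; the design text gives 9 mice for the amygdala.

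The 4 genes, the lists of sphingolipid genes and the markers were chosen with earlier results of these data known. Fewer p-values are given for the 4 genes than the plan allowed, since the prefrontal separation with trauma was also known. List genes were named by rule: every gene that passed where at most 12 did, otherwise the 4 with the smallest p in each list, and the 2 with the smallest p where none passed. Prefrontal Res-T without trauma replicate 4 and other libraries were left out in turn; leaving that replicate 4 out of the correlations was added after the data were seen. Alternatives were quantile normalization, a minimum mean of 10, a pseudocount of 10, an oligodendrocyte covariate, a replicate block and fits with only the 2 groups of a contrast. 1 gene that the naming rule selects is not reported here.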

Additional observations from a re-analysis of the deposited data

Results flagged for a closer look

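The trauma effects of Sus-T and Res-T differed by limma in the amygdala for 10 listed sphingolipid genes, given here as the trauma effect in Sus-T minus that in Res-T on the log2 scale. The values were 2.05 for Elovl7, 1.17 for Npc1, 1.60 for Asah2, 3.02 for Neu3, 1.54 for Elovl6, 1.37 for S1pr5 and 1.33 for St6galnac3. They were -2.31 for Cers6, -1.35 for St3gal2 and -1.56 for B4galt6. Of the 64 measured genes 10.9% were called higher and 4.69% lower, beside 4.76% and 1.98% of all genes. The contrast rests on 2 Sus-T libraries without trauma. The count was 4 or 5 when a Res-T library without trauma was left out, and 0 with the oligodendrocyte covariate.

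In groups of 4 libraries, 12 single libraries of named sphingolipid genes lay far from the other 3 by Dixon's criterion, out of 108 groups examined; chance gives about 1 in 20 groups. In the prefrontal cortex, Res-T without trauma replicate 4 was far above the others for Cers2 (2132), Elovl7 (697), Gltp (887) and Spns2 (429). Prefrontal Sus-T with trauma replicate 4 was far above for Col4a3bp (429), Elovl7 (292) and Gal3st1 (209.8), and replicate 3 was far above for St6galnac3 (281) and far below for Asah2 (61.4). In the amygdala, Res-T with trauma replicate 2 was far above for Cers6 (136) and Spns2 (553), and Sus-T with trauma replicate 2 for Elovl7 (872). None of the 4 chosen genes had such a library.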

How the results depend on the processing

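Of 544 re-computed differences of the 4 genes, 506 moved by less than the spread between libraries or kept their side of the threshold. Of the others, 36 moved by more. A further 1, the amygdala Fa2h difference of trauma effects under the oligodendrocyte covariate, was classed as reversed. The last 1, in a contrast where p is given for the 4 genes, changed its side of the threshold. The sign changed in 21 of the 544, over 11 of 40 results, all of them trauma effects or their differences. With the oligodendrocyte covariate the amygdala differences without trauma were 4.06 for Smpd3, -0.25 for Fa2h and -0.36 for Ugt8a, and the Fa2h difference of trauma effects turned to -0.20, against 1.29. The covariate also turned the amygdala trauma difference of Smpd3 in Sus-T to -1.38, against 0.35, that of Fa2h to -0.12 in Sus-T, against 0.91, and to 0.08 in Res-T, against -0.37, and the Smpd3 difference of trauma effects to -2.23, against 0.26. The prefrontal Fa2h difference of trauma effects ran from -0.87 to 1.28, with 3 of 18 alternatives below 0, against 0.20. Under the oligodendrocyte covariate the prefrontal differences with trauma were 2.53 for Smpd3, 2.19 for St3gal5 and -0.0445 for Ugt8a. Sphingolipid calls under it were 3 in the amygdala without trauma, 0 for the amygdala difference of trauma effects and 0 in the prefrontal cortex with trauma. The cause was not tested. Quantile normalization gave -1.27 for Ugt8a in the amygdala without trauma, and a pseudocount of 10 gave 2.57 for Smpd3 in the prefrontal cortex with trauma. For trauma in amygdala Sus-T, quantile normalization, a mean of at least 10 and a pseudocount of 10 each gave 1 call. Leaving out 1 library at a time gave -2.30 to -1.61 for Fa2h and -2.12 to -1.20 for Ugt8a in the amygdala without trauma. For Fa2h in the prefrontal cortex without trauma it gave -2.86 to -0.706. Sphingolipid calls were then 15 to 20 in the amygdala without trauma, 1 to 12 for the amygdala difference of trauma effects, 1 to 7 for trauma in amygdala Res-T, 0 to 5 for trauma in amygdala Sus-T, 3 to 6 in the prefrontal cortex with trauma and 0 to 5 for trauma in prefrontal Res-T. With the replicate block there were 22 calls in the amygdala without trauma (25 without it) and 4 in the prefrontal cortex with trauma (6 without it), and no count moved by over 1.5 times; same-numbered libraries had correlated deviations of -0.446 to 0.159 in the amygdala and -0.395 to 0.346 in the prefrontal cortex, so the numbers were not treated as pairs. Groups of 2 to 4 libraries and the unknown read depth limit what could be detected.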
